A study of Mus musculus with 7 samples.

Results

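The genes described here are 10 heat shock genes of the mouse, chosen by symbol from the RNA tables: Hspa1a, Hspa1b, Hspa8, Hsph1, Dnajb1, Hspb1, Hsp90aa1, Hspd1, Hspe1 and Bag3. They encode chaperones and cofactors of the cytosol and of mitochondria, and all 10 were found among the 23583 gene entries listed in both RNA libraries. The cells were primary dermal fibroblasts of female FVB/N mice, grown for 8 days with serum, and either left untreated or exposed for 3 h to thapsigargin. This inhibitor of SERCA, the pump that fills the endoplasmic reticulum (ER) with calcium, causes ER stress and the synthesis of the transcription factor ATF4. Of 7 libraries, 2 measured RNA (untreated, treated), 3 measured factor binding by ChIP-seq (CEBPB untreated, CEBPB treated, ATF4 treated) and 2, of untreated cells, measured CpG methylation by bisulfite sequencing, pooled by the authors into 1 percentage per cytosine. Strain, sex, cell type and culture were common to all groups, and neither the age nor the number of mice is stated in the labels.

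Heat shock proteins bind unfolded proteins. HSP70 chaperones take up exposed hydrophobic stretches, J proteins such as DNAJB1 start their ATP cycle, and nucleotide exchange factors such as HSPH1 and BAG3 end it, while HSP90 completes the folding of kinases and receptors and the HSPD1–HSPE1 chamber folds proteins of the mitochondrial matrix. Unfolded protein in the cytosol frees the transcription factor HSF1, which binds heat shock elements, inverted repeats of GAA, in the promoters of these genes. Unfolded protein in the ER acts instead through PERK and ATF4, IRE1 and ATF6, whose best known chaperone target is the ER member of the HSP70 family, Hspa5.

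RNA values are FPKM, a level corrected for transcript length and sequencing depth, and come with the lower and upper confidence bounds that the authors deposited. The bounds imply a depth of 53915048 fragments for untreated and 78944294 for treated cells. The 12207 entries that reached FPKM 1 in either library are called expressed here. Their summed FPKM was 362330 in untreated and 257942 in treated cells. The markers of fibroblasts were present in both libraries, all 11 expressed, at a summed FPKM of 16291 and 4250. Keratinocyte markers, all 7 expressed, summed to 27.9 and 1.60, macrophage and leukocyte markers, all 8 listed ones expressed, to 1103 and 1384, and markers of muscle and pericytes, 5 of 6 expressed, to 1181 and 517. Of endothelial markers 1 of 5 was expressed, and of melanocyte and Schwann cell markers 3 of 6, summing to 33.0 and 4.43; no listed marker stood at 0 in either library. Single genes make up most of some sums: Acta2, at FPKM 1124 and 475, for muscle and pericytes, and Lyz2, at 880 and 951, for macrophages. Of the 8 macrophage and leukocyte markers, 5 stood higher and 3 lower in treated cells. These marker sums differ between the libraries but do not measure cell numbers. The part of such cells in the differences of the heat shock genes was not tested. In such bulk RNA, fewer cells of a type and less RNA per cell cannot be told apart. With 1 library per condition no difference had a replicate check. The 95% intervals given for ratios cover counting error alone.

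The untreated cells already held RNA of all 10 genes, and the constitutive HSP70 gene Hspa8 was far above the inducible ones. Hspa8 stood at FPKM 221 in untreated cells. Next came Hspe1 at 45.8, Bag3 at 38.1, Hspd1 at 34.8, Hsp90aa1 at 33.7, Dnajb1 at 24.3, Hspb1 at 22.1 and Hsph1 at 21.3, and last the stress-inducible HSP70 genes, Hspa1b at 6.29 and Hspa1a at 5.10. The bounds of Hspd1 and Hsp90aa1 overlapped, as did those of Hspb1 and Hsph1, and the bounds of all other neighbours in this order lay apart. Hspa8 thus exceeded Hspa1b 35.1 times and Hspa1a 43.3 times, and it made up 48.8% of the summed FPKM of the 10 genes.

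After thapsigargin the order kept Hspa8 at the top and the Hspa1 pair at the bottom, with 2 changes of place. Hspa8 stood at FPKM 109, followed by Bag3 at 74.9, Hspe1 at 57.9, Hspd1 at 57.1, Hsp90aa1 at 38.1, Dnajb1 at 32.1, Hsph1 at 18.1, Hspb1 at 8.70, Hspa1b at 6.46 and Hspa1a at 3.19. Bag3 passed Hspe1, and Hsph1 passed Hspb1; here Hspe1 and Hspd1 were the only neighbours whose bounds overlapped. The summed FPKM of the 10 genes was 452 before and 405 after treatment, beside 362330 and 257942 over all expressed entries. Without Hspa8 the sum of the set was 231 and 297. For scale, Hspa5 alone went from 354 to 4978, so that it exceeded Hspa8 by 1.60 times in untreated and by 45.9 times in treated cells.

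**Figure D1:**
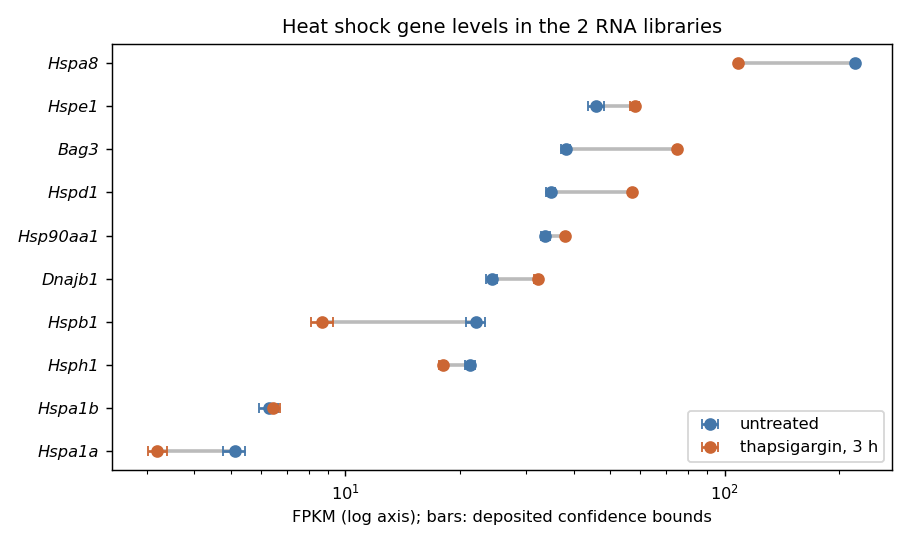
FPKM of the 10 heat shock genes on a log axis, with 1 row per gene; blue points are the untreated and orange points the thapsigargin library, bars are the deposited confidence bounds, and a grey line joins the values of a gene. Hspa8 stood highest and Hspa1a lowest in both libraries, Bag3 moved up the most (38.1 to 74.9) and Hspb1 moved down the most (22.1 to 8.70).

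None of the 10 genes was higher by 1 or more on the scale of log2(FPKM + 1), and 2 were lower by that much, Hspa8 and Hspb1. By that rule 6.02% of the expressed entries were higher and 28.2% lower. The median change of the 10 genes was 0.10, with 6 above 0, beside a median of −0.52 over all expressed entries, of which 27.4% were above 0. The highest was Bag3 at 0.96, above 93.5% of expressed entries, and the lowest was Hspb1 at −1.25, above 19.5% of them.

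The change between the libraries differed between genes with few and with many exon junctions. Among genes with FPKM of at least 5 in either library, the 127 with no junction had a median change of 0.33. In the same group the 244 whose coding transcripts average above 8 junctions per kb had −1.71. Each change was therefore also taken relative to the median of genes with a similar junction density (junction-adjusted change). On that scale Hspd1 stood at 1.35 and Bag3 at 1.15, and 0 of the 10 genes were lower by 1 or more, beside 12.4% of entries higher and 10.7% lower. The median of the 10 genes was then 0.57, with 7 above 0, beside 0.02 over all entries, of which 51% were above 0. Hsph1, with 6.11 junctions per kb, changed sign, from −0.23 to 0.79. Centred instead on −0.40, the median of the abundant entries (FPKM of at least 5 in each library), Bag3 stood at 1.35 and Hspd1 at 1.10, and none was lower by 1, beside 11% of entries higher and 15.8% lower.

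**Figure D2:**
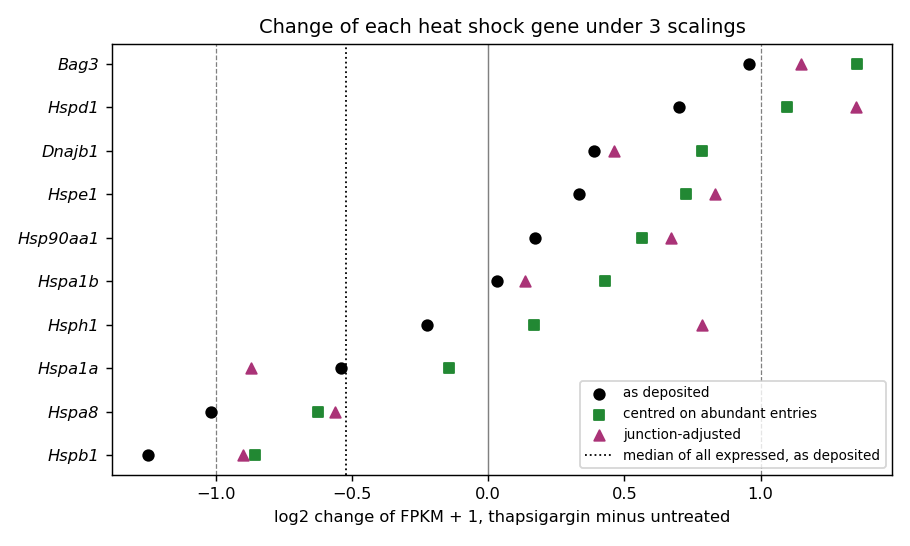
Log2 change of FPKM + 1 (thapsigargin minus untreated) for each of the 10 genes, as deposited (circles), centred on abundant entries (squares) and junction-adjusted (triangles); dashed lines mark changes of 1 in size and the dotted line the median of all expressed entries as deposited, −0.52. Bag3 and Hspd1 pass 1 only after centring or adjustment, Hspa8 and Hspb1 pass −1 only as deposited, and Hspa1a, Hspa8 and Hspb1 lie below 0 on all 3 scalings.

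Hspa1a and Hspa1b encode the stress-inducible HSP70 of the cytosol, whose RNA is the classical readout of HSF1. Hspa1b (chr17:35093374-35096183, mm9, minus strand) stood at FPKM 6.29, with bounds of 5.91 and 6.66, in untreated cells and at 6.46 (6.20 to 6.72) in treated cells. The bounds overlapped, and the ratio of treated over untreated was 1.03 (95% interval 0.958 to 1.10). Hspa1a (chr17:35106304-35109101, minus strand) stood at 5.10 (4.77 to 5.44) and 3.19 (3.01 to 3.38), lower in treated cells with bounds that lay apart, a ratio of 0.626 (0.574 to 0.682). Their coding sequences match at 99.5% of aligned positions, and 40 of 57 windows of 100 bases of Hspa1a and 41 of 55 of Hspa1b have a near-identical copy elsewhere, mostly in each other. Another annotated gene, Gm20481, overlaps 18.9% of the exonic bases of Hspa1a. How the authors' counting treated shared fragments is not known, and a few windows of both genes are also alike to Hspa1l. The sum of the pair, which also depends on that counting, was FPKM 11.4 in untreated and 9.65 in treated cells.

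The promoters of the pair are also near-copies, shown here so that the likeness of the pair can be seen beside their unlike RNA values. The 250 bases before the start, from RefSeq promoters on GRCm38.p6 found letter for letter on mm9 at chr17:35109102-35109351 and chr17:35096184-35096433, differ at 3 of 250 positions. Both read 5′ to 3′ on the minus strand, and the capitals mark the only match to a pair of heat shock units, GAANNTTC.
Hspa1a: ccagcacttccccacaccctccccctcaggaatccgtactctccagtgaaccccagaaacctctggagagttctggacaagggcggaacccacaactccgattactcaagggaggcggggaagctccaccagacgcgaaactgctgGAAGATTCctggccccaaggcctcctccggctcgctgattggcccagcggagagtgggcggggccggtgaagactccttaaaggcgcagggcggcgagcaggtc
Hspa1b: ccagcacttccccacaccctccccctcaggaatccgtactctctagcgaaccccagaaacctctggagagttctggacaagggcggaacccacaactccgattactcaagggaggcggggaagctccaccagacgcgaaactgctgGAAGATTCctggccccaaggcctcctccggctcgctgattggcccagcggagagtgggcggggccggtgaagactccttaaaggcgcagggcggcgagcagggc

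Hspa8 encodes HSC70, the constitutive HSP70 that folds new proteins and uncoats clathrin vesicles. Hspa8 (chr9:40609356-40613282, plus strand) stood at FPKM 221 (218 to 223) in untreated and 109 (107.3 to 109.8) in treated cells. The treated value was 0.491 of the untreated one (95% interval 0.483 to 0.499), a log2 change of −1.02, and −0.56 after junction adjustment. Copies cover 40 of its 46 windows, among them the annotated pseudogenes Gm15459 and Gm8355, and its exons overlap small nucleolar RNA genes over 6.30% of their bases, which makes this value uncertain.

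Of the cofactors of HSP70, Bag3 and Dnajb1 were higher in treated cells on all 3 scalings, and Hsph1 was lower as deposited but higher after centring (0.17) and junction adjustment (0.79). Bag3 (chr7:135667097-135690493, plus strand), which encodes a nucleotide exchange factor that links HSP70 to selective autophagy, stood at FPKM 38.1 (37.1 to 39.0) and 74.9 (74.0 to 75.9). It was 1.97 times higher in treated cells (1.91 to 2.02), the highest ratio of the 10 genes, and 0 of its 50 windows have a copy. Dnajb1 (chr8:86132074-86135802, plus strand), which encodes the J protein HSP40, stood at 24.3 (23.5 to 25.1) and 32.1 (31.5 to 32.8), a ratio of 1.32 (1.27 to 1.37), and has 0 copied windows of 44. Hsph1 (chr5:150419420-150438890, minus strand), which encodes the exchange factor HSP110, stood at 21.3 (20.7 to 21.9) and 18.1 (17.7 to 18.5), a ratio of 0.848 (0.819 to 0.879), and has 0 copied windows of 75. These are the 3 genes of the set without near-identical copies, and their summed FPKM was 83.7 in untreated and 125 in treated cells.

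Hspb1 encodes the small heat shock protein HSP27, called HSP25 in the mouse, which holds unfolded proteins and protects actin filaments. Hspb1 (chr5:136363789-136365433, plus strand) stood at FPKM 22.1 (20.7 to 23.4) in untreated and 8.70 (8.13 to 9.28) in treated cells. It was 2.54 times lower after treatment (2.32 to 2.77). Copies cover 12 of its 17 windows, most of them at the processed pseudogene Hsp25-ps1, so part of this value depends on how shared reads were assigned. Its 250 bases before the start (chr5:136363539-136363788, mm9, plus strand), shown because 2 pairs of heat shock units stand there beside the lowest change of the set, are as follows, with the pairs in capitals.
Hspb1: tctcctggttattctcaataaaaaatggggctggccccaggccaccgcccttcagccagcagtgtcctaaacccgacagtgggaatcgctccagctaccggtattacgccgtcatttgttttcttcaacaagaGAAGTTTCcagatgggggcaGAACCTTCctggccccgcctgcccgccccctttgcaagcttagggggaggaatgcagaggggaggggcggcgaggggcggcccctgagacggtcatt

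Hsp90aa1 encodes the stress-inducible HSP90 of the cytosol. Hsp90aa1 (chr12:111929246-111934605, minus strand) stood at FPKM 33.7 (32.8 to 34.6) and 38.1 (37.4 to 38.7), with bounds that lay apart and a ratio of 1.13 (1.10 to 1.16). Copies cover 54 of its 64 windows, with the pseudogenes Gm12346 and Gm5844 among them. Its constitutive relative Hsp90ab1 stood at 499 and 380, and so exceeded it 14.8 times in untreated and 9.98 times in treated cells, while Hsp90b1, the HSP90 of the ER, stood at 291 and 663.

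Hspd1 and Hspe1 encode HSP60 and its lid HSP10 and lie head to head, with starts 216 bp apart. Hspd1 (chr1:55134678-55144776, minus strand) stood at FPKM 34.8 (33.8 to 35.7) and 57.1 (56.2 to 58.0), a ratio of 1.64 (1.59 to 1.69). Hspe1 (chr1:55144992-55148161, plus strand) stood at 45.8 (43.7 to 48.0) and 57.9 (56.3 to 59.6), a ratio of 1.26 (1.20 to 1.33). Both were higher in treated cells with bounds that lay apart, and the level of Hspd1 relative to Hspe1 went from 0.758 to 0.985. Copies cover 43 of 47 windows of Hspd1, all 43 of them at the pseudogene Gm12141, and 9 of 14 windows of Hspe1. The annotated exons of the pair overlap over 4.24% of the exonic bases of Hspd1 and 7.6% of those of Hspe1.

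The stretch between the starts (chr1:55144777-55144991, mm9) is shown because it holds the longest heat shock element found in the promoters of the set. It lies within the RefSeq promoter of Hspe1 and is printed 5′ to 3′ on the plus strand. The capitals mark 18 bases (chr1:55144903-55144920) that read TTC, GAA, TTC and GAA, with a pair of bases between neighbouring units. The run searched for has 3 heat shock units, which is GAANNTTC followed after any pair of bases by GAA. It matches within these 18 bases on each strand.
Hspd1-Hspe1: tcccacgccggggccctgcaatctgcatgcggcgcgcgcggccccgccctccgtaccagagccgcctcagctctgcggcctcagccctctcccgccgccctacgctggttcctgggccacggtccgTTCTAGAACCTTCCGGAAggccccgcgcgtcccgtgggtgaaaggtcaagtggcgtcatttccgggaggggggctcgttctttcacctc
This element lies 127 bp from the start of Hspd1 and 72 bp from that of Hspe1. It lies between 2 ATF4 peaks of treated cells, 218 bp from the end of one and 146 bp from the start of the other.

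The highest ATF4 peak at any of the 10 genes stood there too, centred in the first intron of Hspd1. This peak, chr1:55144338-55144685, had a score of 19.4 and ranked 215 of 10109, in the top 2.13% of the ATF4 list; scores are the authors' own and rank peaks within a list only. It holds 1 match to TGATGAAA, a form of the composite site at which a C/EBP and an ATF protein can pair, at chr1:55144470-55144477, 41 bp from the peak's centre. Of all ATF4 peaks 0.436% hold these letters on either strand. The intronic bases around it on the mm9 plus strand (chr1:55144370-55144577) follow, with the match in capitals.
Hspd1 intron: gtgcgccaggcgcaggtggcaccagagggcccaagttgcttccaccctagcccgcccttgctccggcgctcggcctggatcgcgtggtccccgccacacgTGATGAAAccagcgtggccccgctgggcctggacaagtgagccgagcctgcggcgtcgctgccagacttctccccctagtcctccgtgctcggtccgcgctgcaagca
No peak of either CEBPB list lies within 10 kb of Hspd1 or Hspe1. A site below the thresholds of the peak lists would not be seen here.

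ATF4 peaks of treated cells lay at most of the 10 genes, as at most expressed loci. An ATF4 peak lay within 10 kb of 8 of the 10 loci, beside 61.5% of all expressed loci, and within 1 kb of the start of 7, beside 47.9% of expressed starts. The 7 are Hspa8, Hsph1, Dnajb1, Hsp90aa1, Hspd1, Hspe1 and Bag3. Hsp90aa1 had the next highest peak after that of Hspd1, chr12:111934646-111934922, which ranked 584 of 10109, and another at chr12:111934118-111934516, which ranked 1622. The peak over the start of Hsph1, chr5:150438593-150439028, ranked 2546. The peaks of the others ranked low: 8814 for Dnajb1 (chr8:86132399-86132629), 8705 and 8988 for Hspa8, and 6548 and 9244 for Bag3, and 8480 for the peak inside Hspe1 (chr1:55145066-55145307). Hspa1b and Hspb1 had no peak of any of the 3 lists within 10 kb. The promoters of Hspa1a and Hspa1b differ at 3 of 250 positions, and how reads alike to both were placed is not known. A missing peak at either start therefore does not show a lack of binding. The ATF4 peak 9819 bp from Hspa1a lies 37 bp from the start of another gene, Lsm2.

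With the start taken as the end of the deposited locus, ATF4 peaks stood on each side of 4 of these 7 starts with none over the start itself. They are Hspa8, with peaks from −429 to −173 and from 75 to 271 bp, Hsp90aa1, from −317 to −41 and from 89 to 487 bp, and Hspd1 and Hspe1, which share the same pair of peaks. Of the 5632 expressed starts with an ATF4 peak within 1 kb, 2.93% have this arrangement and 52.7% have a peak over the start; of all expressed starts 1.4% have the arrangement. The arrangement was singled out after its values were seen. By the same definition Hsph1 alone of the 7 had a peak over its start. The arrangement depends on that definition, since other annotated starts lie inside these peaks: 12 and 15 bp from the centres of the peaks of Hspa8, 151 bp from the centre of the inner peak of Hsp90aa1, 99 bp from that of the outer peak of Hspd1 and 62 bp from that of the peak of Dnajb1.

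**Figure D3:**
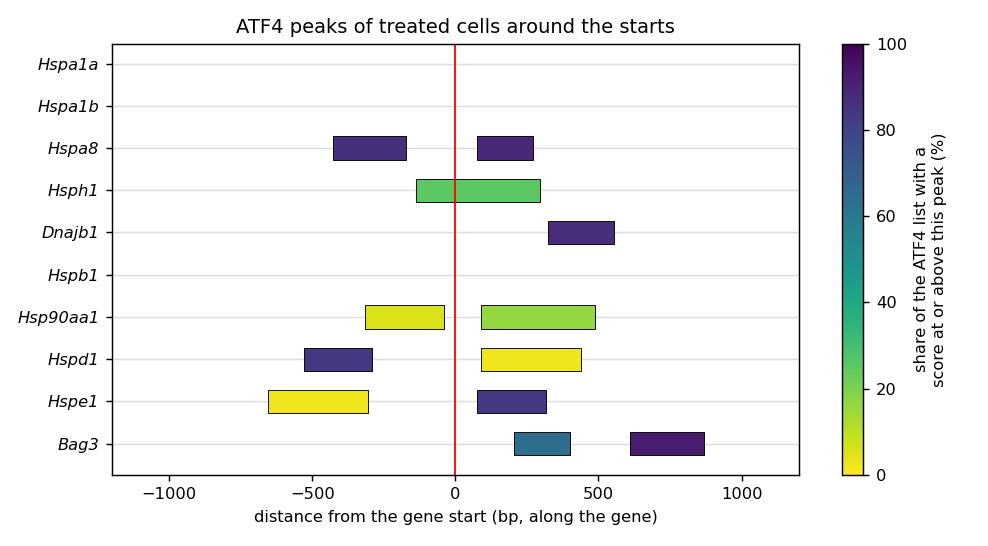
ATF4 peaks of treated cells within 1.2 kb of the gene starts, drawn as bars from their first to their last base by distance from the start along the gene, with colour for the share of the ATF4 list that scores at or above the peak. Hspa8, Hsp90aa1, Hspd1 and Hspe1 have a peak on each side of the deposited locus end (red line), and Hsph1 has 1 over it. Dnajb1 and Bag3 have peaks inside the gene, and Hspa1a, Hspa1b and Hspb1 have no listed peak. How reads were placed at the near-copy promoters of Hspa1a and Hspa1b is not known.

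Of the 7 genes with an ATF4 peak at the start, 5 were above 0, beside 27.9% of expressed genes with such a peak, and their median log2 change was 0.33. Of the 3 without, all of which have copied sequence and 2 of which are the Hspa1 pair, Hspa1b was above 0, at 0.03, beside 25.7% of expressed genes without a peak, and the median was −0.54. The exceptions among the 7 were Hspa8 at −1.02 and Hsph1 at −0.23. Over all expressed genes the difference was small: the median was −0.47 for the 5632 with and −0.59 for the 6124 without an ATF4 peak within 1 kb of the start. After junction adjustment 6 of the 7 were above 0, beside 53.0% of expressed genes with a peak. Of the 3 without, 1 was then above 0, beside 49.2% of expressed genes without a peak. The adjusted medians over expressed genes were 0.05 with and −0.01 without a peak. Hspd1 and Hspe1 share the same pair of peaks and are not 2 separate cases. The Hspa1 pair is not a firm case of starts without a peak, since its promoters are near-copies.

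Counts of CEBPB peaks at 10 loci are too low to set against the share over all loci. In untreated cells 1 of the 10 loci had a CEBPB peak within 10 kb, beside 24.2% of expressed loci: the peak chr7:135696602-135696985, 6109 bp past the far end of Bag3, ranked 6750 of 7317. In treated cells again 1 had a peak, beside 22.5% of expressed loci: the peak chr9:40615869-40616041, 2587 bp past the far end of Hspa8, ranked 7229 of 7861. Both are near the bottom of their lists, and no CEBPB peak lay within 1 kb of any of the 10 starts, beside 4.92% of expressed starts in untreated and 3.90% in treated cells.

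Heat shock units were found in most of the promoters. RefSeq promoters, 250 bases before to 50 after the start, were held for 8 of the 10 genes, the exceptions being Hspa8 and Hsp90aa1. The run of 3 heat shock units matched on either strand at Hsph1 and at the shared element of Hspd1 and Hspe1, beside 0.603% of all 32851 promoters. The pair GAANNTTC, which is part of that run, matched at 7 of the 8 genes, beside 7.86% of promoters. Dnajb1 had no match. Among promoters of expressed genes the share was 5.70%. Hspd1 and Hspe1 match at their shared element, and the promoters of Hspa1a and Hspa1b are near-copies, so the 7 are not 7 separate sequences. The 8 genes have 11 promoters, while these shares are per promoter. The pair TTCNNGAA matched at the same 3 genes as the run, beside 8.52% of promoters. Searched the same way, TGATGCAA, TGATGAAA, TGACGCAA, CGATGCAA, TTGCGCAA, the cyclic AMP element TGACGTCA and the ER stress element are not in these windows of the 8 genes. Each of these is in few promoters at all, from 0.119% for the ER stress element to 1.79% for the cyclic AMP element, so their absence says nothing particular of these 8 genes. The CCAAT box, which many promoters carry, matched at 5 of the 8, beside 37.4% of promoters.

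At Hsph1 the run of 3 units and at Bag3 the pair lie just past the RefSeq start; Hsph1 also has a pair, TTCTCGAA, before it. They are shown with capitals for the match, 5′ to 3′ along each gene (chr5:150438862-150438883, minus strand, and chr7:135667131-135667146, plus strand).
Hsph1: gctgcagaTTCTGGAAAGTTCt
Bag3: tgggaccaGAAGTTTC
The match of Hsph1 lies inside its ATF4 peak. The run of 3 units is found in 0.168% of all ATF4 peaks, and among the 11 ATF4 peaks within 10 kb of the set it is in the peak of Hsph1 and the upstream peak of Hspa8.

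The starts of all 10 genes were unmethylated in untreated cells, with or without an ATF4 peak in treated cells. Within 500 bp of the start the mean methylation was under 10% at all 10, beside 83.9% of expressed starts and 59.3% of all starts, and the median of expressed starts was 0.759%. Hspe1 had the lowest mean, 0.0375% over 120 CpGs, and Hspb1 the highest, 4.97% over 54 CpGs, with 1 CpG at 58%. The others were 0.0506% for Hsph1, 0.0537% for Hspd1, 0.072% for Hsp90aa1, 0.0922% for Dnajb1, 0.1% for Hspa8, 0.272% for Hspa1b, 0.613% for Hspa1a and 1.25% for Bag3. The CpGs inside the ATF4 peaks of the set averaged 0% to 0.156%, beside a median of 0.171% over all ATF4 peaks. The percentages used here carry no read numbers, so their depth and error are unknown. At Hspa1a and Hspa1b 53 and 57 of the 79 CpGs had values, and at Hspb1 54 of 65.

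The far ends of the loci were methylated to different degrees. None was under 10%, beside 1.65% of expressed and 2.07% of all far ends. Hspd1 was highest at 91.4% over 4 CpGs, followed by Hsph1 at 88.2%, Hsp90aa1 at 87.0%, Dnajb1 at 86.1%, Hspa1a at 84.4%, Hspe1 at 77.5% and Bag3 at 76.2%. Hspa1b stood at 61.9% over 4 CpGs. Hspb1 at 42.5% over 25 CpGs and Hspa8 at 33.9% over 6 CpGs were the lowest. Hspb1 is short, and its far-end window begins inside the stretch of low methylation around its start. Within 250 bp of the far end the means were 59.8% at Hspb1, 53.5% at Hspa1b and 42.5% at Hspa8. Of all loci, 8.06% had a lower far end than Hspb1 and 5.82% a lower one than Hspa8, beside a median of 75.8%. The stretch around the start out to the first CpG at 50% or more ran from 419 bp upstream to 1414 bp downstream at Hspb1. At Hspa8 it ran from 1925 bp upstream to 2100 bp downstream. Such a stretch can hold partly methylated CpGs: at Hspb1 the mean was 16.1% in the step centred 1300 bp downstream.

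**Figure D4:**
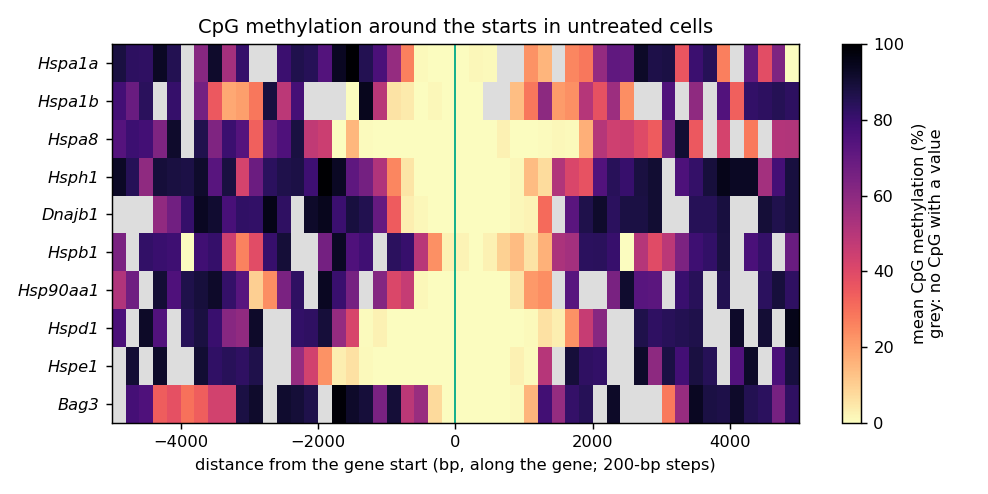
Mean CpG methylation of untreated cells in equal steps around the starts of the 10 genes, by distance along the gene, from 0% (pale) to 100% (dark), with grey where no CpG had a value. All 10 starts lie in a pale stretch; it is narrowest upstream at Hspb1 (419 bp to the first CpG at 50% or more) and wide at Hspa8 (1925 bp upstream and 2100 bp downstream).

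As deposited, the other genes of the cytosolic and mitochondrial chaperone lists were mostly lower in the treated library, as were most genes. These lists also hold cofactors, mitochondrial proteases, the genes of the heat shock factor list and Hspa13, an HSP70 of the ER. Of 70 expressed genes of these lists outside the set, 3 were higher and 22 lower by 1 or more. Over all expressed entries 6.02% were higher and 28.2% lower. The median of the 70 was −0.50, beside −0.52 over all expressed entries. After junction adjustment 9 of the 70 were higher and 6 lower, beside 12.4% and 10.7% of entries, with a median of 0.06 beside 0.02. The 15 ER chaperones, all expressed, had 10 higher and 0 lower, with a median of 1.31, or 1.75 after adjustment. Sdf2l1, which belongs to an ER chaperone complex, stood at FPKM 16.8 and 346, and Hspa5 at a log2 change of 3.81; the lowest of the list were Canx, calnexin, at −0.69, whose treated value the authors' table lists as failed, and Pdia6, a disulfide isomerase, at −0.07.

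In the HSP70 and HSP110 family, Hspa5 and Hyou1, the HSP110 of the ER, which stood at FPKM 40.4 and 192, were the 2 of 14 expressed members that were higher by 1 or more. Hspa13, another HSP70 of the ER, stood at FPKM 18.4 and 16.3, a log2 change of −0.16; it was named after its values were seen. The 3 lower ones were Hspa12b at −1.96, Hspa14, a ribosome-associated HSP70, at −1.84, and Hspa8. Over all expressed entries 6.02% were higher and 28.2% lower by 1 or more. Hspa9, the HSP70 of mitochondria, stood at 176 and 125, a log2 change of −0.48, or 0.28 after adjustment. Among 14 expressed genes of HSP90 and its cofactors, 2 were higher, Hsp90b1 at 1.19 and Ptges3, the cofactor p23, at 1.07 with copies of 71.8% of its windows. The lowest were Trap1, the HSP90 of mitochondria, at −2.69, and the immunophilin gene Fkbp4 at −1.81.

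Among 11 J protein genes Dnajb5 was higher, at 1.12, and Dnajc7 lower, at −1.64; Dnajb2 stood at 0.65 and Dnajb6 at −0.59. Of 6 expressed small heat shock genes, Hspb7 was higher at 1.25, from FPKM 3.40 to 9.42, Hspb8, a partner of BAG3, stood at 0.69, and Hspb2 at −0.87, so Hspb1 was the only member lower by 1. Of the 11 BAG proteins and HSP70 cofactors none was higher by 1 and 4 were lower by 1 or more. Over all expressed entries 6.02% were higher and 28.2% lower. Bag5 was just under 1 (0.996), and Bag3 stood at 0.96. After centring 2 of the 11 were higher and 3 lower, beside 11% and 15.8% of entries. After junction adjustment 2 were higher and 2 lower, beside 12.4% and 10.7%. The lowest were Bag6 at −2.52 and Stub1, the ubiquitin ligase CHIP, at −2.06, both also below −1 after adjustment, at −1.44 and −1.68.

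Of 15 mitochondrial chaperone and protease genes none was higher and 4 were lower by 1 or more, beside 6.02% and 28.2% of expressed entries. The median of the 15 was −0.55, beside −0.52 over all expressed entries. After centring 3 of the 15 were higher and 2 lower, beside 11% and 15.8% of entries, with a median of −0.16. After junction adjustment 1 was higher and 2 lower, beside 12.4% and 10.7%, with a median of 0.24. The cofactors of mitochondrial HSP70, Grpel2 at 0.83 and Grpel1 at 0.70, were the highest with Hspd1, and the lowest were Trap1 and the protease gene Spg7 at −2.23. The chaperonin of the cytosol, TRiC, which folds actin and tubulin, and its partner prefoldin had 8 of 13 genes lower and none higher, with a median of −1.22; Cct2 went from FPKM 145.0 to 35.6, and log2 changes were −1.84 for Cct8 and 0.40 for Pfdn1. After junction adjustment none of the 13 was lower by 1, 1 was higher, and the median was −0.23. Hsf1 itself stood at FPKM 16.6 and 23.6, a log2 change of 0.49, or 1.34 after adjustment, Hsf2 at −0.20, and Hsbp1, which encodes a protein that binds HSF1, at −1.17. For comparison, Atf4 stood at 2.02 and Ddit3, which encodes CHOP, at 3.13.

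**Figure D5:**
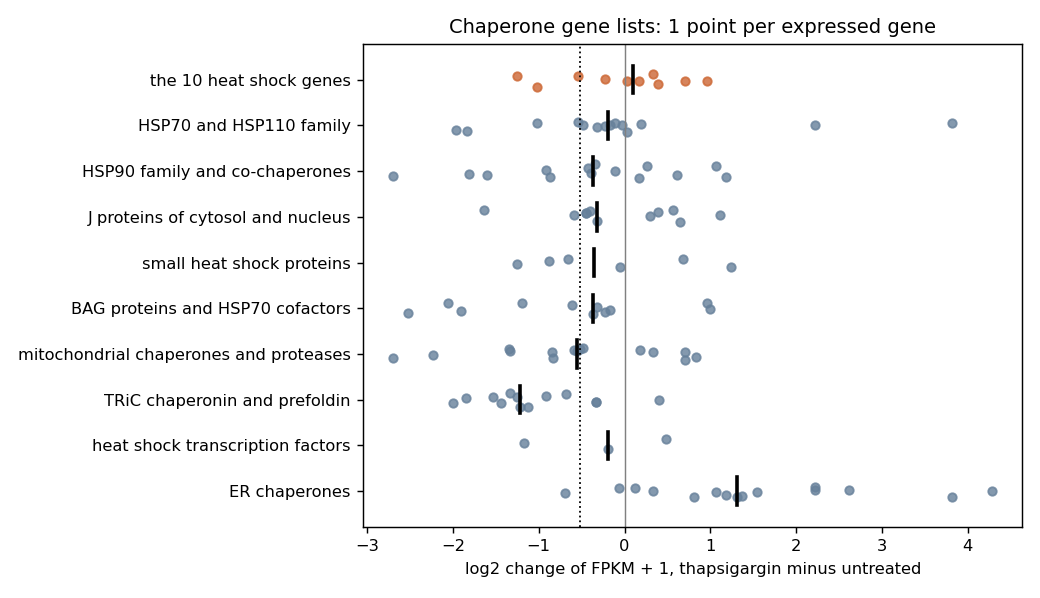
Log2 change of FPKM + 1 (thapsigargin minus untreated) for the expressed genes of each chaperone list, with 1 point per gene, a black bar for the list median and a dotted line for the median of all expressed entries (−0.52); vertical scatter within a row has no meaning, and some genes are in more than 1 list. The ER chaperones reach 4.29 with a median of 1.31, the 10 heat shock genes span −1.25 to 0.96, and TRiC and prefoldin have a median of −1.22.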

How the data were processed

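The submitters' processing notes name mm9 and, as tools, CASAVA 1.8.2 and Bowtie for RNA, CASAVA 1.7, BWA and SAMtools for immunoprecipitation, and CASAVA 1.8 and Novoalign for bisulfite sequencing. FPKM values with bounds, peak scores and the percent of methylation per cytosine are the values that the authors deposited; no source used here names the programs behind FPKM and peaks. The RNA kit, per the labels, is a TruSeq RNA kit, and whether counting used strand is not stated. Fragment numbers were recovered from the bounds, on the premise that a bound lies 2 Poisson errors from its value; of those tested, 74.1% (untreated) and 80.7% (treated) were whole within 0.05. Changes are on the scale of log2(FPKM + 1), where those of weakly expressed genes appear too small. Junctions per kb were averaged over coding transcripts of GENCODE vM1, and genes reaching FPKM 5 were sorted into 50 bins. Copies were 100-base windows, every 50 bases, of the longest coding transcript, aligned with minimap2 2.31-r1302 with at most 3 mismatches outside the gene. The gene start is the deposited locus end on the vM1 strand. CpG strands were averaged, heterozygous entries were left out, and 98.6% of the rest on numbered chromosomes, X and Y lay at a CG of the mm9 reference. All 11 RefSeq promoters of the genes were found letter for letter on mm9. Interval, adjustment and motif code was tested on simulated data. The genes named are the 10 genes, the 2 highest and 2 lowest expressed genes of each list, and 7 fixed genes. Hspa13 and the markers Acta2 and Lyz2 were named after their values were seen. The genes and lists were chosen with earlier results of these data known. No test was run, because each condition had 1 library.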

Additional observations from a re-analysis of the deposited data

How the results depend on the processing

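As deposited, 0 of the 10 genes were higher and 2 lower by 1 or more. With a pseudocount of 5 the lower count was 0. After centring on abundant entries, and likewise after junction adjustment, 2 were higher and 0 lower. The change of Hsph1, −0.23 as deposited, was 0.17 after centring and 0.79 after junction adjustment, and the cause was not tested. The other genes of the cytosolic and mitochondrial chaperone lists, 3 higher and 22 lower, had 9 higher and 14 lower after centring. They had 9 and 6 after junction adjustment, and 14 lower among the 46 genes without copies. Subtracting a reference change moves these counts by construction. Over all expressed entries, 6.02% were higher and 28.2% lower as deposited, 11% and 15.8% after centring, and 12.4% and 10.7% after adjustment. Genes with a CEBPB peak of untreated cells, 1 within 10 kb, were 0 within 5 kb, 4 within 50 kb and 0 with scores at or above the list's median. Those with a CEBPB peak of treated cells, 1, were 6 within 50 kb and 0 with such scores. Those with an ATF4 peak, 8, were 5 with such scores. The other 27 alternative summary values lay within 1.5 times the main count or 1 SD of the main median. Among them, the median of the other genes of the chaperone lists, −0.50, was 0.06 after junction adjustment. Within 1000 bp, 9 rather than 10 starts were under 10% methylation. Of the other values, of single genes, lists, ends and motifs, 185 moved little, 58 moved more and 2, those of Hsph1 above, changed sign for a single gene. Medians of the HSP70, HSP90, J protein, small heat shock and heat shock factor lists were below 0 as deposited and above 0 after both scalings, that of the BAG list was 0.03 after centring, and that of the mitochondrial list 0.24 after junction adjustment. The depth behind the methylation percentages is unknown, and reads of copied genes limit 7 of the 10 RNA values. Near-copy promoters also limit what the peak lists show at Hspa1a and Hspa1b. Neither bisulfite library could be left out, since the values are pooled. No paired analysis was possible because no comparison had replicates.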
